A study of Canis lupus familiaris with 21 samples.

Results

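The BCL2 family genes BCL2, BCL2L1, MCL1, BCL2A1, BAX, BAK1, BCL2L11, BBC3, PMAIP1 and BAD were followed across the stages and areas of canine cutaneous histiocytoma (CCH), a skin tumor of Langerhans cell origin that often regresses by itself. The 10 genes were chosen by name, and each matched exactly 1 of the 21399 gene rows. The RNA came from 21 archived tumor samples fixed in formalin and embedded in paraffin (FFPE), and was sequenced with QuantSeq, which reads each transcript near its 3′ end. The comparisons ask whether the survival and death genes differed between tumor cell areas of stages 1 and 2, between lymphocyte areas of stages 2 and 3, and between the 2 kinds of area.

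Sample group 1 held stage 1 tumors (n = 5 dogs, 0.5 to 5 years old where an age was given, which left out 1 dog). Group 2a held tumor cell-rich punches of stage 2 tumors (n = 5 dogs, 0.6 to 3 years old). Group 2b held lymphocyte-rich punches of stage 2 tumors (n = 6 samples, dogs of 0.3 to 6 years), of which 4 were pooled from 3 or 4 dogs each and 2 came from 1 dog each. Group 3 held lymphocyte-rich stage 3 tumors (n = 5 dogs, 1.5 to 9 years old). The labels name no treatment, the tumors came from privately owned dogs of many breeds and were excised for diagnosis or cure, and the areas were chosen under the microscope, so that each sample was a mixture of cells. No group held normal skin or sorted cells, and stage and area were not crossed, because no lymphocyte-rich stage 1 and no tumor cell-rich stage 3 sample was included. The labels did not tie samples of group 2a to samples of group 2b from the same dog.

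BCL2 family proteins decide whether the outer membrane of the mitochondrion is opened. The survival members BCL2, BCL2L1 (BCL-XL), MCL1 and BCL2A1 (BFL-1/A1) bind and restrain the effectors BAX and BAK1, which form the pores, while the BH3-only members BCL2L11 (BIM), BBC3 (PUMA), PMAIP1 (NOXA) and BAD sense stress or loss of survival signals and neutralise the survival members or trigger the effectors. In leukocytes, BCL2A1 is known as a target of NF-κB, and BCL2L11 as the member through which lymphocytes die when cytokines are withdrawn.

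The libraries held 2113393 to 3559404 counted reads, and 3 reads, the floor used here for detection, corresponded to 0.843 to 1.42 reads per 1000000. RNA integrity, given as DV200 (the percentage of longer RNA fragments), averaged 68.5% in group 1 and 73.2% to 74.6% in the other groups. The study also lists an RNA quality number (RQN), which was higher in every group 2a sample than in every group 2b sample. RQN was not used in the fits, so its part in differences between groups 2a and 2b was not tested. The ages and DV200 values are those of the labels, from which a table of the study differs in the DV200 of group 3 replicate 5 and the lowest age in group 2b. Of 8 histiocyte markers, the summed level spanned 5219 to 8933 normalized counts over all samples, and the groups overlapped. The summed level of 8 T cell markers was 48.2 to 1747 in group 1 and 432 to 1411 in group 2a, but 2456 to 3763 in group 2b and 2815 to 4286 in group 3, so that the kinds of area did not overlap. CD4 was at 0 in every tumor cell-rich sample and had 5 reads in all 11 lymphocyte-rich samples together, so the subset of T cells could not be read from it. The B cell marker MS4A1 was at 0 in every tumor cell-rich sample and averaged 15.5 in group 2b. Its group 3 mean was 4.68, with 2 samples at 0. Summed over 6 B cell markers, the level spanned 1029 to 1745 in lymphocyte-rich samples of stage 2, but 289 to 1939 at stage 3. The stage 3 range overlapped those of tumor cell-rich samples, which were 397 to 610 at stage 1 and 339 to 868 at stage 2. Tumor cell-rich samples with over 1000 summed T cell marker counts were group 1 replicates 3 and 4 and group 2a replicate 5, and samples with over 5000 summed keratinocyte marker counts were group 1 replicates 1 and 4 and group 3 replicates 2 and 5. Because these are bulk samples, fewer cells of a type and less RNA per cell cannot be told apart.

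Of the 10 members, 6 passed the count filter (at least 10 reads in at least 5 samples) over all samples, and 4 did not. BCL2A1 on chromosome 3 (57937969 to 57949867 in the UU_Cfam_GSD_1.0 assembly) had the most reads of the family, with a mean of 1306 normalized counts (reads divided by 1 size factor per sample) over the 21 samples, which ranked 231 among all genes. MCL1 (chromosome 17, 60416999 to 60420508) followed with 465, BCL2L11 (chromosome 17, 35800089 to 35850247) with 334, BCL2 (chromosome 1, 13811587 to 13978482) with 203, BBC3 (chromosome 1, 109447382 to 109456419) with 120 and BCL2L1 (chromosome 24, 21645527 to 21696882) with 74.0. QuantSeq counts about 1 read per transcript, so these counts were not divided by gene length, and their order across genes also depends on how well each 3′ end is annotated. All 6 had reads in every sample, from a lowest count of 30 reads for BCL2L1.

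**Figure D1:**
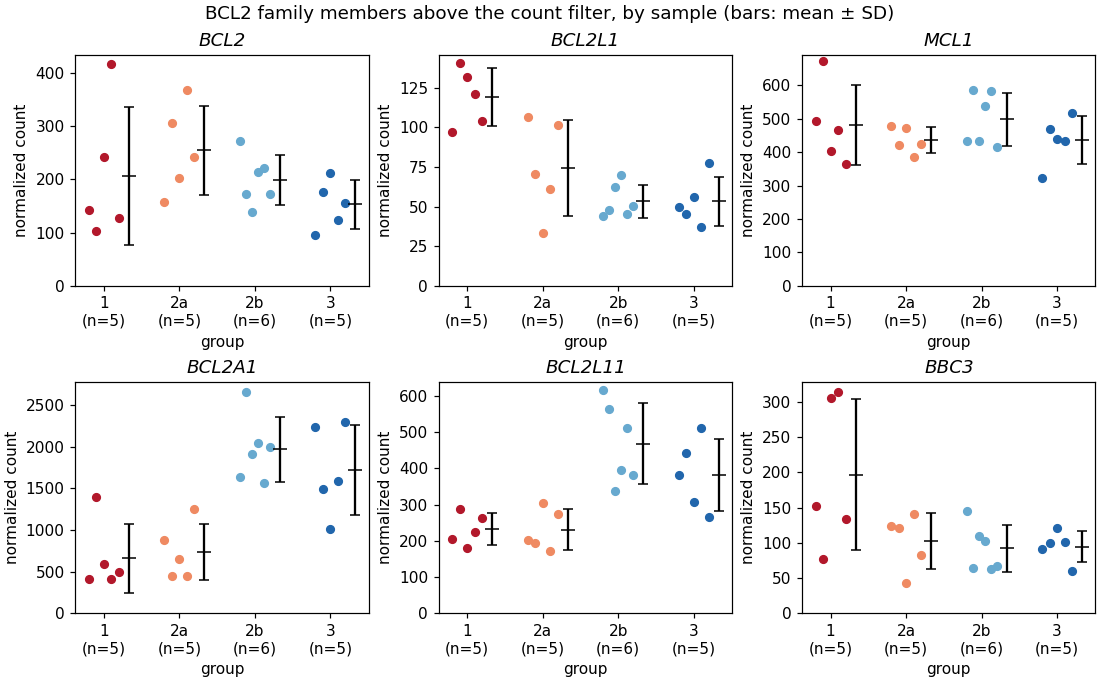
Normalized counts (linear axis from 0) of the 6 members that passed the count filter, with 1 point per sample in groups 1 (n = 5), 2a (n = 5), 2b (n = 6) and 3 (n = 5) and bars for the mean ± SD. BCL2A1 and BCL2L11 lay higher in the lymphocyte-rich groups 2b and 3, BCL2L1 was highest in group 1, and MCL1 stayed between 322 and 674 in all samples.

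The effectors were hardly read at all. BAX (chromosome 1, 108096913 to 108100590) had 19 reads in all 21 samples together and at most 5 in any, and BAK1 (chromosome 12, 3129752 to 3132990) had 47 reads and at most 8. BAX was above the floor of 3 reads in 2 samples, both in group 2b, and was at 0 in all 5 samples of group 3. BAK1 was above the floor in 6 samples, of which 3 belonged to group 3 with 8, 7 and 7 reads, while the other 2 samples of that group had none.

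The BH3-only members PMAIP1 and BAD were equally low. PMAIP1 (chromosome 1, 16558934 to 16562268) had 28 reads in total, above the floor in 1 sample of group 2a with 8 reads and 1 sample of group 2b with 4 reads. BAD (chromosome 18, 53289648 to 53298901) had 2 reads in total, 1 in each of 2 group 2b samples. A difference between groups in BAX, BAK1, PMAIP1 or BAD was therefore not detectable at this depth, and a count of 0 here allows a level of up to 0.843 to 1.42 reads per 1000000, as far as counting error goes. Whether their transcripts were scarce or their 3′ ends lay outside the annotated gene was not tested.

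**Figure D2:**
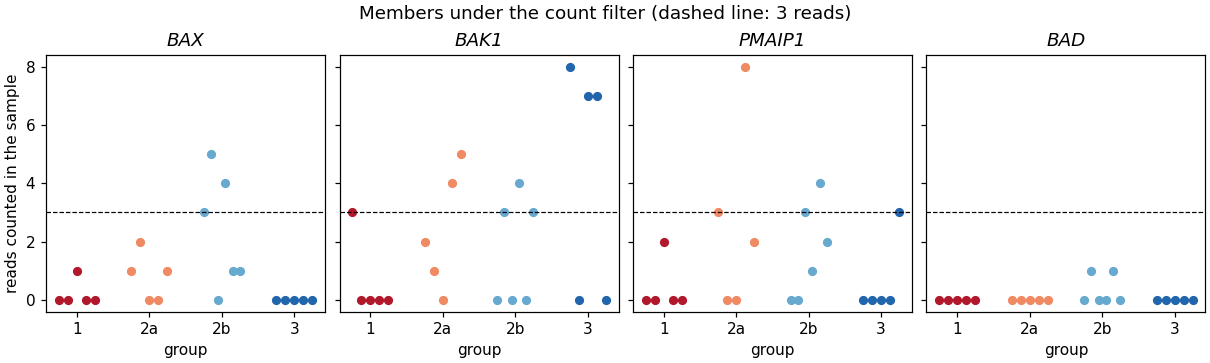
Reads counted per sample (not normalized) for the 4 members under the count filter, by group, with the floor of 3 reads as a dashed line. The highest points are 8 reads for BAK1 and for PMAIP1, and BAD never exceeds 1 read.

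Annotated neighbors share the span of several members, and no source states whether reads were counted by strand. Other annotated genes overlapped 7 of the 10 members. Those found in the tables had at most 8 reads in any sample, few beside the 6 members that passed the filter. For BAX and BAK1 they were not few. LOC119876000, which overlaps BAX, had 39 reads in all samples together, against 19 for BAX. LOC111098223, which overlaps BAK1, had 18, against 47 for BAK1. No counts were found under the names LOC119870319, which overlaps BBC3, and LOC111094459, which overlaps BCL2, so their reads are not known here.

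As a share of the family's reads, the balance among members differed between the areas. Reads on the 10 members amounted to 714 ± 185 reads per 1000000 in group 1 and 739 ± 149 in group 2a (SD, n = 5 each), against 1380 ± 173 in group 2b (SD, n = 6) and 1158 ± 186 in group 3 (SD, n = 5). BCL2A1 alone held 33.1% ± 11.6 and 38.5% ± 10.5 of them in groups 1 and 2a, and 59.7% ± 6.07 and 59.3% ± 9.69 in groups 2b and 3. The share of BCL2L1 was 6.40% ± 0.748 in group 1 and 4.00% ± 1.29 in group 2a, against 1.64% ± 0.369 in group 2b and 1.89% ± 0.537 in group 3. BCL2L11 kept a similar share throughout, with group means of 12.6% to 14.3%. These shares sum to 100%, so a rise of BCL2A1 lowers the others by construction.

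**Figure D3:**
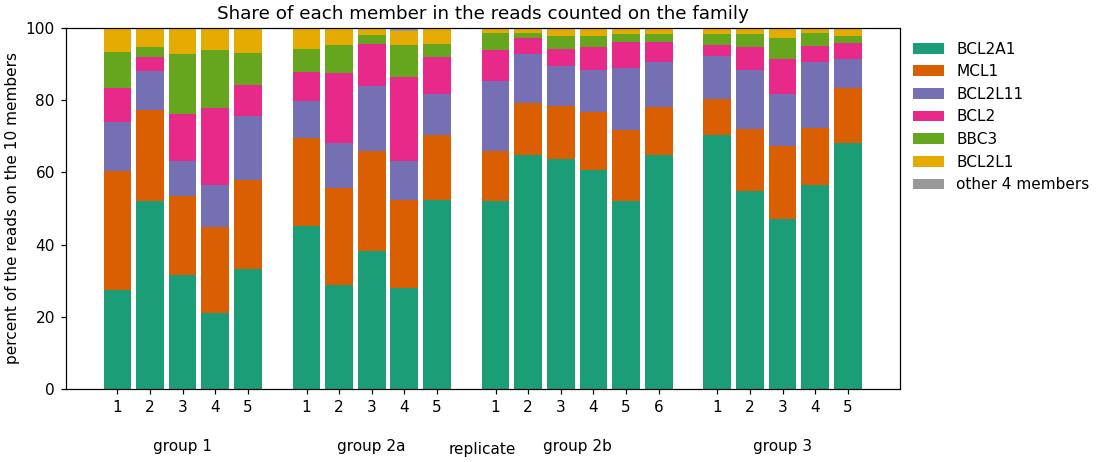
Percentage of the reads on the 10 members that each member held, as stacked bars with 1 bar per sample ordered by group and replicate. BCL2A1 takes 47.0% or more of the family's reads in every sample of groups 2b and 3, and 21.1% to 52.4% in groups 1 and 2a.

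In the tumor cell-rich areas, no member passed the test between stage 2 and stage 1. With edgeR's quasi-likelihood test, 0 of the 6 tested members reached a p of 0.05 or less after Benjamini-Hochberg adjustment in group 2a versus group 1, where 0.527% of the 11200 genes tested did. DESeq2 and limma also called 0 members, and 2 had an unadjusted p under 0.05, beside 17.9% of all genes.

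BBC3, a direct target of p53, was among those 2. It stood at 152, 76.8, 306, 314 and 133 normalized counts in group 1 and at 124, 121, 42.2, 141 and 83.3 in group 2a. Group 1 replicates 3 and 4 were far above the rest, and the other group 1 values lay among or near those of group 2a. The log2 fold change was -0.93 (SE 0.40, edgeR adjusted p = 0.251). The same replicates 3 and 4 had over 1000 summed T cell marker counts, as did group 2a replicate 5, where BBC3 was 83.3. Replicate 4 of group 1 was also high in keratinocyte markers. Without the 3 tumor cell-rich samples over that T cell level, the log2 fold change was -0.17 (edgeR adjusted p = 0.861). That fit drops the 2 highest BBC3 samples of group 1, and the part of T cells was not tested.

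BCL2L1, which encodes BCL-XL, was the other. Its counts were 97.3, 140, 132, 121 and 104 in group 1 and 107, 70.9, 33.3, 60.8 and 102 in group 2a. The highest group 2a samples, replicates 1 and 5, overlapped with group 1, and replicate 3 was the lowest of all 21 samples. The log2 fold change was -0.66 (SE 0.28, edgeR adjusted p = 0.240), and it was -0.74 without the samples high in T cell markers.

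BCL2, the founding survival member, varied more within these groups than between them. It was measured at 143, 103, 242, 417 and 127 in group 1 and at 157, 305, 202, 368 and 242 in group 2a. Group 1 replicate 4 was the highest sample of the series, and the groups overlapped widely (log2 fold change 0.31, SE 0.37, edgeR adjusted p = 0.707). Without the samples high in T cell markers, the log2 fold change became 1.06 (adjusted p = 0.171).

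MCL1 is a short-lived survival protein that many myeloid and lymphoid cells need. It averaged 481 ± 119 in group 1 and 437 ± 38.5 in group 2a (SD, n = 5 each; log2 fold change -0.14, 95% interval -0.52 to 0.25). The log2 intervals were -0.69 to 1.01 for BCL2A1 and -0.44 to 0.42 for BCL2L11, so a change of BCL2L11 by 1 log2 unit lay outside its interval, while for BCL2A1 it did not.

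In the lymphocyte-rich areas, no member passed the test between stage 3 and stage 2 either. In group 3 versus group 2b, edgeR called 0 of 6 tested members, beside 0.111% of the 11685 genes tested. DESeq2 and limma called 0 members, and 0 members but 13.1% of all genes had an unadjusted p under 0.05. BCL2 came nearest, with a mean of 153 ± 45.2 in group 3 (SD, n = 5) against 199 ± 47.4 in group 2b (SD, n = 6), a log2 fold change of -0.38 (95% interval -0.84 to 0.08). BCL2L11 had a log2 fold change of -0.29 (-0.71 to 0.12), and BCL2A1 and MCL1 each had -0.20, with intervals of -0.62 to 0.23 and -0.51 to 0.12. BCL2L1 averaged 53.3 in both groups. BBC3 averaged 94.1 ± 22.1 in group 3 and 91.9 ± 32.8 in group 2b. Each of the 6 intervals excluded a change of 1 log2 unit in either direction.

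Between the areas of stage 2 tumors, 2 members rose in the lymphocyte-rich punches and none fell. In group 2b versus group 2a, BCL2A1 and BCL2L11 passed both at the adjusted p of 0.05 and at a log2 change of 1, which is 2 of 6 tested members, where 16.5% of 11545 genes passed the first criterion (8.9% as higher) and 9.55% passed both. Both also showed no overlap between the samples of the groups, as did 6.07% of all genes tested in this direction.

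BCL2A1, the NF-κB-inducible survival member, was the more abundant. Its counts in group 2a were 880, 452, 654, 447 and 1247, and in group 2b they ran from 1561 through a median of 1957 to 2654. Every group 2b sample exceeded the highest group 2a sample, replicate 5. The log2 fold change was 1.41 (SE 0.26, edgeR adjusted p = 0.00209). With group 2b reduced to its 4 pooled samples the log2 fold change was 1.35 (adjusted p = 0.00949), and with its 2 samples of 1 dog it was 1.55 but did not pass (adjusted p = 0.0909).

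BCL2L11 encodes BIM, the death member opposed by all survival members. Its counts in group 2a were 202, 195, 305, 173 and 273, and in group 2b they ran from 338 through a median of 453 to 615. The ranges were separate, although group 2a replicate 3 came close to the lowest group 2b sample. The log2 fold change was 1.02 (SE 0.20, edgeR adjusted p = 0.00312), just past the fold criterion. It was 0.82 (adjusted p = 0.0186) with the 4 pooled samples and 1.37 (adjusted p = 0.0389) with the 2 samples of 1 dog. It also lay under 1, down to 0.92, without any 1 of group 2a replicates 1, 2 and 4 and group 2b replicates 1, 2 and 5, and was 0.995 with DV200 as covariate, each time with an adjusted p under 0.05.

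The other 4 members did not pass. BCL2L1 ran from 43.9 through a median of 49.2 to 70.0 in group 2b, with a log2 fold change of -0.49 (SE 0.27, edgeR adjusted p = 0.242). This value hung on group 2a replicate 3, the lowest sample, without which the log2 fold change was -0.68 (adjusted p = 0.0481). BCL2 had a log2 fold change of -0.36 (adjusted p = 0.298), MCL1 of 0.19 (adjusted p = 0.380) and BBC3 of -0.16 (adjusted p = 0.777).

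**Figure D4:**
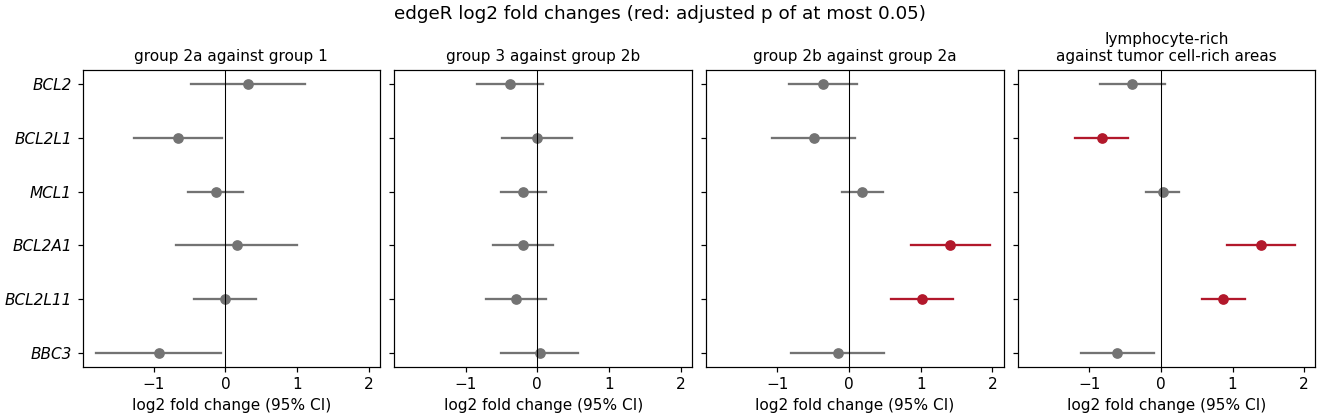
Log2 fold changes from edgeR (points) with 95% intervals (lines) of the 6 tested members in the 4 comparisons, in red where the adjusted p was at most 0.05. The red points are BCL2A1 and BCL2L11 in both comparisons of lymphocyte-rich with tumor cell-rich areas, and BCL2L1 in the one that used all samples.

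With all 21 samples, the average of groups 2b and 3 was set against the average of groups 1 and 2a, a contrast that also spans stages and shares its samples with the comparisons above. BCL2A1 and BCL2L11 rose and BCL2L1 fell, which is 3 of 6 tested members, where 29.5% of 12505 genes passed (15.2% higher, 14.3% lower). When a log2 change of 1 or more in size was also required, 1 member passed, BCL2A1, beside 11.9% of all genes. None of the 6 members was free of overlap between the 11 lymphocyte-rich and the 10 tumor cell-rich samples, as 2.29% of all genes were.

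BCL2A1 in group 3 was read at 2235, 1491, 1012, 1586 and 2300, and in group 1 at 414, 1395, 586, 412 and 495. Group 3 replicate 3 fell below group 1 replicate 2 and group 2a replicate 5, and all other lymphocyte-rich samples were above all tumor cell-rich ones. The means over areas were 1858 and 698, a log2 fold change of 1.40 (SE 0.23, edgeR adjusted p = 9.77e-05).

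BCL2L11 in group 3 was read at 383, 443, 307, 512 and 266, and in group 1 at 205, 288, 180, 224 and 263. Group 3 replicate 5 lay within the tumor cell-rich range, and group 3 replicate 3 was level with its upper end, while the remaining lymphocyte-rich samples were above it. The log2 fold change was 0.87 (SE 0.14, edgeR adjusted p = 0.000113).

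BCL2L1 in group 3 was read at 50.0, 45.3, 56.3, 37.3 and 77.5. Every sample of groups 2b and 3 was below every sample of group 1, whereas 3 of the 5 group 2a samples lay within the lymphocyte-rich range or below it. The means over areas were 53.3 and 96.8, a log2 fold change of -0.83 (SE 0.18, edgeR adjusted p = 0.00132).

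BBC3 was close to the threshold, with means of 92.9 and 149 and a log2 fold change of -0.61 (SE 0.24, edgeR adjusted p = 0.0646). DESeq2 gave an adjusted p of 0.0470, and edgeR passed it without group 1 replicate 2 (0.0196), group 2a replicate 3 (0.0242) or group 2b replicate 1 (0.0367). In the other direction, the log2 fold change was -0.29 (adjusted p = 0.379) without the tumor cell-rich samples high in T cell markers. MCL1 differed by 0.02 on the log2 scale, with a 95% interval of -0.21 to 0.26, and BCL2 by -0.40 (adjusted p = 0.188), which was -0.04 without the samples high in T cell markers.

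Lymphocyte markers rose in the same contrast in which BCL2A1 and BCL2L11 rose and BCL2L1 fell, while MCL1, BCL2 and BBC3 did not pass. All 7 tested T cell markers (of 8) and 5 of 6 B cell markers rose in the lymphocyte-rich areas, with median log2 fold changes of 2.11 and 4.02 against 0.01 for all genes, while 1 of 8 histiocyte markers fell and none rose. Within the tumor cell-rich samples, BCL2A1 did not follow the T cell markers evenly: group 1 replicates 3 and 4, with 1747 and 1202 summed T cell marker counts, had BCL2A1 at 586 and 412, group 1 replicate 2, with 523, had it at 1395, and group 2a replicate 5, with 1411, had it at 1247. The part of the cell mixture in the rise of BCL2A1 and BCL2L11 was not tested. Without the 3 tumor cell-rich samples high in T cell markers, the log2 fold changes between areas were 1.42 for BCL2A1, 0.84 for BCL2L11 and -0.73 for BCL2L1, each with an edgeR adjusted p of at most 0.01. Leaving those samples out widens the difference in T cell markers between areas, so that fit is no test of the cell mixture either.

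**Figure D5:**
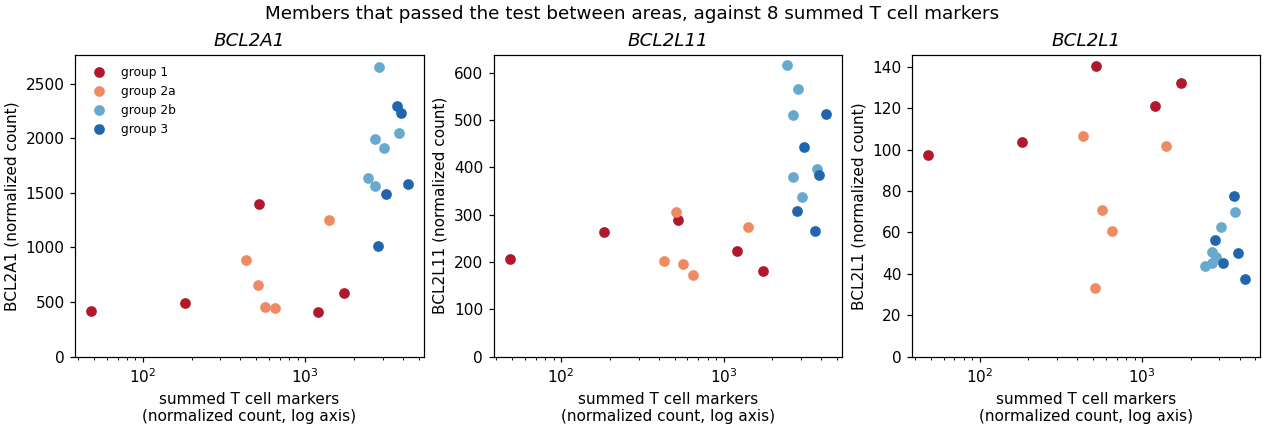
Normalized counts of BCL2A1, BCL2L11 and BCL2L1 (linear axes) against the summed normalized count of 8 T cell markers (log axis), with 1 point per sample colored by group. The lymphocyte-rich samples sit to the right, from 2456 upward, and among the tumor cell-rich samples to the left the members do not rise or fall evenly with the markers.

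Among 11 further BCL2 family genes found in the tables (of 14 listed), BCL2L15, a less studied relative, passed in 3 of the 4 comparisons. It averaged 774 ± 169 in group 1 and 415 ± 38.7 in group 2a, but 105 ± 53.8 in group 2b and 128 ± 86.2 in group 3. The tumor cell-rich groups overlapped neither with each other nor with the lymphocyte-rich ones. Such a lack of overlap held for 5.65% of all genes tested in group 2a versus group 1, and for 2.29% between areas. BCL2L15 fell by 0.89 on the log2 scale in group 2a versus group 1 (SE 0.16, edgeR adjusted p = 0.0399). It was the only one of 9 tested family genes to pass there, beside 0.527% of all genes. That call was kept without group 1 replicate 4 but lost without any other single sample of the 2 groups (adjusted p up to 0.104). In the same comparison the keratinocyte markers were lower in group 2a, with a list median of -2.08 and 6 of 7 tested markers at an unadjusted p under 0.05, although 0 passed after adjustment, and their summed level averaged 6233 in group 1 and 1552 in group 2a. Without the samples high in keratinocyte markers, the log2 fold change of BCL2L15 was -0.68 (adjusted p = 0.0766). Between areas BCL2L15 fell by 2.29 (SE 0.28, edgeR adjusted p = 4.96e-06) with all samples and by 1.99 within stage 2.

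Other family genes that passed between areas included BIK, a BH3-only gene, which rose from a mean of 4.79 to 23.3 without overlap (log2 fold change 2.26, edgeR adjusted p = 0.00254). BIK had only 22 reads in group 1 and 27 in group 2a, with 1 and 2 samples at 0. It was too low for the count filter in group 2a versus group 1. The highest group 2a sample, at 10.65, lay just under the lowest group 2b sample, at 10.96. The size of the BIK rise and its lack of overlap thus rest on counts near the floor. BNIP3L, a mitophagy receptor, rose by 0.60 (adjusted p = 0.0158), BCL2L14 rose by 1.11 (adjusted p = 0.0432) and BCL2L12 fell by 0.43 (adjusted p = 0.00653). In all, 3 of 10 tested rose and 2 fell, where 15.2% of all genes rose and 14.3% fell. The call of BCL2L14 was lost in 15 of the 21 fits that left out 1 sample, and that of BNIP3L without the samples high in T cell markers (adjusted p = 0.0695) or in keratinocyte markers (0.132). Within stage 2, 1 of 10 rose (BNIP3L) and 1 fell (BCL2L15), a share near the 16.5% of all genes called there. No such gene passed in group 3 versus group 2b with edgeR, where 1 of 10 had an unadjusted p under 0.05, beside 13.1% of all genes.

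Of 10 tested genes of the mitochondrial death machinery below the effectors, 1 rose and 1 fell between areas, where 15.2% of all genes rose and 14.3% fell. BIRC3, an inhibitor of apoptosis that is itself induced by NF-κB, rose by 1.37 between areas (SE 0.25, edgeR adjusted p = 0.000304) and by 1.70 within stage 2, where it averaged 248 ± 130 in group 2b and 75.7 ± 29.0 in group 2a without overlap. ENDOG, a mitochondrial nuclease, fell by 0.65 between areas (adjusted p = 0.0306) at means of 17.6 and 27.9. The call of ENDOG was lost without group 1 replicate 2 (0.0544) or group 2a replicate 5 (0.0735). The remaining 8 did not pass between areas, and the median of the list was -0.01 beside 0.01 for all genes. None passed in group 2a versus group 1 or in group 3 versus group 2b with edgeR. There 1 and 2 genes of 10 had an unadjusted p under 0.05, beside 17.9% and 13.1% of all genes.

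Of 22 tested regulators known to act on the members, 7 rose and 1 fell between areas, with a list median of 0.19, where 15.2% of all genes rose and 14.3% fell. PIM2, a survival kinase that phosphorylates BAD, rose by 1.94 without overlap (SE 0.24, edgeR adjusted p = 4.64e-06). FOXO1, a transcription factor known to induce BCL2L11, rose by 1.50 (adjusted p = 2.62e-05), and TP73, a relative of p53, rose by 2.12 without overlap (adjusted p = 7.47e-05). AKT1, the kinase that restrains FOXO factors and BAD, fell by 0.52 from a mean of 1023 to 685 (adjusted p = 0.00216). Within stage 2, 8 of 21 rose and 0 fell, beside 8.9% of all genes that rose. None of 21 passed between stages in either kind of area with edgeR, with 4 at an unadjusted p under 0.05 in each, beside 17.9% of all genes in the tumor cell-rich and 13.1% in the lymphocyte-rich areas.

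Of 14 tested receptors of survival cytokines and costimulation, 6 rose and none fell between areas (list median 0.44), where 15.2% of all genes rose. IL21R rose by 2.25 (edgeR adjusted p = 2.31e-05), IL2RB by 1.70 (adjusted p = 0.000341) and CSF2RA, a subunit of the GM-CSF receptor, by 1.09 (adjusted p = 0.000391). Within stage 2, 5 of 13 rose, beside 8.9% of all genes, among them TNFRSF13C, the BAFF receptor of B cells, by 1.43 (adjusted p = 0.000662). IL7R, whose signal is known to sustain BCL2 in T cells, fell by 0.81 within stage 2 (SE 0.23, adjusted p = 0.0250), from 663 ± 187 in group 2a to 379 ± 119 in group 2b, a call that was lost without any of 5 samples taken singly (group 2a replicate 4 and group 2b replicates 3, 4, 5 and 6, adjusted p of 0.0536 to 0.0704). With group 2b reduced to the 2 samples of 1 dog, the calls within stage 2 of IL21R, IL2RB, TNFRSF13C and IL7R, and of BNIP3L, BIRC3, PIM2 and TP73, were lost, whereas those of FOXO1 and BCL2L15 were kept. None passed between stages with edgeR. In the tumor cell-rich areas 1 of 11 had an unadjusted p under 0.05, beside 17.9% of all genes. In the lymphocyte-rich areas 0 of 12 did, beside 13.1% of all genes.

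Within groups, the members did not vary as a block. After each group's mean was taken off, Pearson's r of log2(normalized count + 1) over the 21 samples, which share depth and cell mixture across genes, was 0.61 between BCL2 and BBC3 and -0.59 between BCL2 and BCL2A1. It was -0.52 between BCL2A1 and BBC3, -0.51 between BCL2L1 and BCL2L11, 0.43 between BCL2A1 and BCL2L1 and 0.27 between BCL2A1 and BCL2L11. BCL2A1 and BCL2L11, which both rose between areas, were thus only weakly alike within groups. On the same scale several members varied with the summed level of other cell type markers. With 6 fibroblast markers, r was -0.70 for BCL2, -0.55 for BBC3, 0.47 for BCL2A1 and 0.52 for BCL2L11, and with 5 endothelial markers it was 0.55 for BCL2L11. With the T cell markers it was 0.40 for BCL2, 0.28 for BCL2A1 and -0.03 for BCL2L11. Other lists gave values of similar size, such as -0.54 for BCL2L1 with plasma cell markers. MCL1 had 0.44 with neutrophil markers, and BCL2L1 had -0.42 with mast cell markers. All were picked from the values of every tested member with every marker list, and serve as description only. The part of the marked cell types in the relations between members was not tested.

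On the same measure, the 3 genes most like BCL2A1 among 12505 were LOC611446 (r = 0.92), GGH (0.91) and SDC4 (0.91). For BCL2 they were PHF20L1 (0.89), LOC102155549 (0.88) and PAK1 (0.84). For BCL2L1 they were CARD19 (0.84), TNFSF9 (0.82) and SPCS3 (0.80), and for MCL1 they were BST1 (0.79), EMC7 (0.76) and CPSF3 (0.75). With 21 samples and this many genes, the highest values are selected extremes and serve as description only.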

How the data were processed

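Total RNA of 21 FFPE samples was sequenced as QuantSeq 3′ libraries. According to the study's methods and the submitters' processing notes, the authors used Cutadapt for trimming, STAR for alignment to UU_Cfam_GSD_1.0, featureCounts for counting per gene and then DESeq2; versions, strand setting and the treatment of multiply mapped reads are not given in the sources used here. The authors deposited raw counts per gene and a signal column of normalized counts, which equals the count divided by 1 size factor per sample. The deposited tables also hold the authors' own log2 fold changes and p-values, which were not used. Both tables held the same values for all 21 samples.

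Counts were tested with edgeR 4.0.16 in R 4.3.3 (TMM factors, quasi-likelihood test, genes with at least 10 reads in at least 5 samples of the fit, only the groups compared), with Benjamini-Hochberg adjustment over all genes tested. A call needed an adjusted p of at most 0.05. The study's criterion adds a log2 change of 1 or more in either direction. Standard errors were taken from the F statistic. Positions came from the RefSeq table of the same assembly, in which all 21399 symbols matched. The steps were tested on simulated counts. As alternatives, the fits were repeated with limma 3.58.1 on log2(normalized count + 1) or + 5, DESeq2 1.42.0, RLE factors, no count filter, DV200 as covariate, a replicate block, all groups in 1 fit, the pooled or single-dog samples of group 2b, and each sample left out.

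Within groups, the 45 pairs of samples had correlations of 0.838 to 0.945 and 0 were identical. Samples came from separate dogs or pools of dogs, and no batch was named in the labels. The members and the gene and marker lists were chosen with earlier results of these data known. All 10 members were named. From each pathway list, up to 3 called genes per direction and comparison with the smallest p were named, and for each survival member the 3 genes with the highest r. Sequences were not used here.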

Additional observations from a re-analysis of the deposited data

Results flagged for a closer look

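Of 30 sets of values (1 member in 1 group) that could be examined, 4 had a sample far from the others by Dixon's criterion. Values of 3 reads or fewer were first set to 3. For sets without such values, chance alone meets the criterion in about 1 of 20 sets. BCL2A1 in group 1 replicate 2 stood at 1395 normalized counts (1490 reads), while the other 4 samples of the group lay between 412 and 586. That sample also had the highest summed level of 5 neutrophil markers of the series, 9321 normalized counts. The next highest were group 3 replicate 2, with 8863 and BCL2A1 at 1491, and group 1 replicate 1, with 7970 and BCL2A1 at 414. Both of these also had over 5000 summed keratinocyte marker counts. The sum rests mostly on S100A8, S100A9 and S100A12, with group 1 means of 1843, 838 and 1552. CSF3R and PADI4 averaged only 11.6 and 9.19 there. The part of neutrophils in the BCL2A1 value of group 1 replicate 2 was not tested. Without this sample, the log2 fold change of BCL2A1 in group 2a versus group 1 was 0.64 instead of 0.16, and in neither case did it pass.

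The other 3 rest on few reads, and the criterion flagged them by construction. In each, all other samples of the group had 3 reads or fewer and were set to the same value. BAK1 in group 2b replicate 4 stood at 4.24 normalized counts (4 reads), PMAIP1 in group 2a replicate 4 at 9.36 (8 reads) and PMAIP1 in group 2b replicate 5 at 4.02 (4 reads).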

How the results depend on the processing

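The calls of BCL2L11 in both comparisons of areas, and of BCL2L1 with all samples, were kept under all 11 alternative fits, and those of BCL2A1 in all but 1, group 2b from samples of 1 dog, where 1 member instead of 2 passed in group 2b versus group 2a. That setting leaves 2 samples in the group. With the fold threshold, 1 member instead of 3 passed between areas, BCL2L11 and BCL2L1 staying under it. No member passed in the 2 comparisons between stages under any alternative. Leaving out each replicate in turn gave 0 to 0 members called in group 2a versus group 1 and in group 3 versus group 2b, 2 to 3 in group 2b versus group 2a (BCL2L1 added without group 2a replicate 3, and the log2 fold change of BCL2L11 at 0.92 to 1.14) and 3 to 4 between areas (BBC3 added). Log2 fold changes that turned their sign were all near 0 or uncalled. In group 2a versus group 1 these were BCL2L11 at 0.017 with every gene with any read, and BCL2A1 at -0.28 with DV200 as covariate, -0.35 without samples high in T cell markers and -0.16 without samples high in keratinocyte markers. In group 3 versus group 2b they were BCL2L1 at 0.21 and BBC3 at -0.15 with group 2b from samples of 1 dog, and in group 2b versus group 2a BBC3 at 0.044 in that setting. Between areas MCL1 was at -0.00154 with pooled samples of group 2b, -0.030 without samples high in T cell markers and -0.046 without those high in keratinocyte markers. The cause was not tested. With 1 replicate left out, the range was -0.22 to 0.020 for MCL1, -0.12 to 0.64 for BCL2A1 and -0.13 to 0.085 for BCL2L11 in group 2a versus group 1, -0.17 to 0.10 for BCL2L1 and -0.067 to 0.21 for BBC3 in group 3 versus group 2b, and -0.018 to 0.095 for MCL1 between areas. The samples high in T cell or keratinocyte markers were singled out after the data were seen.

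Replicate numbers recur in all groups but name different dogs, and same-numbered samples did not vary together (15 pairs, r of -0.27 to 0.14, 3 over 0.1). With the replicate number as a block, 0, 0, 2 and 3 members were called in the 4 comparisons, as without it, and BBC3 in group 3 versus group 2b moved from 0.03 to -0.00783. Over all genes, the block gave 0 calls in group 2a versus group 1 instead of 59, and 1 in group 3 versus group 2b instead of 13. DESeq2 gave 642 and 178 there, and the DV200 covariate 2438 instead of 3686 between areas. Group 2b from samples of 1 dog gave 111 instead of 1909 within stage 2 and 2034 between areas. Of the named pathway genes, none turned its sign. The calls of BCL2L15 between stages, IL7R, BNIP3L, BCL2L14 and ENDOG were lost under several alternatives, among them the replicate block for all 5 except BNIP3L between areas, and with group 2b from samples of 1 dog those of BIRC3, PIM2, TP73, IL21R, TNFRSF13C and IL2RB within stage 2 were lost as well.

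For BAX, BAK1, PMAIP1 and BAD, with at most 8 reads in any library, a difference between groups was not detectable, and the cause of the low counts was not tested.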
